A study of Gallus gallus with 24 samples.

Results

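The sarcomeric myosin heavy chains were followed across 4 tissues of broiler chicks at hatch and at 7 days of age. Of 9 genes listed for this family (MYH1A, MYH1B, MYH1C, MYH1D, MYH1E, MYH1F, MYH7, MYH7B and MYH15), 7 had at least 1 probe set on the array whose annotation names that gene alone. These were 11 of the 38535 probe sets. MYH1A and MYH1F had none of their own and appeared only in 3 probe sets that are annotated to several of the genes. Those 3 are described separately and stand for no single gene.

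Myosin heavy chain is the motor protein of the thick filament. Its head splits ATP and pulls on actin, its tail assembles into the filament, and the heavy chain isoform largely sets how fast a fibre shortens. Chicken breast muscle consists almost entirely of fast fibres, in which fast heavy chain isoforms are known to replace one another from the embryo to the adult, while slow and cardiac isoforms mark slow fibres and heart.

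All chicks were labelled as male Ross broilers, a commercial meat strain, and no group received a treatment. Liver, whole brain, duodenum and breast muscle were each sampled at day 0, just after hatching, and at day 7. Each of the 8 groups had 3 RNA pools of 4 to 5 chicks, 1 array per pool, 24 arrays in all. Pooling averages over birds, so the spread between pools understates the spread between single chicks, and the labels do not say whether the pools share birds across tissues. Fold changes compare RNA of whole tissue, in which fewer cells of a type and less RNA per cell cannot be told apart.

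The values are MAS5 signals on a linear scale, 1 per probe set and array. The arrays had been brought to a common level, with a trimmed mean of 500.1 or 500.2 on each. The 6 breast muscle arrays correlated at 0.962 to 0.976 within an age and at 0.899 to 0.916 between ages. The mean log2 ratio of 5′ to 3′ control gene signal, a sign of RNA integrity, was -0.81 to -0.61 at day 0 and -0.79 to -0.64 at day 7 on these arrays. The hybridisation control transcripts, which are added to every sample alike, had a mean signal of 9630 to 10900 on the day 0 muscle arrays and 13700 to 14500 on those of day 7, a log2 difference of 0.45. The 147 other probe sets with a mean muscle signal of at least 30000 had a median log2 change of 0.42. The part of this shift in the changes of bright members was not tested. With the muscle arrays scaled to these controls, the log2 changes of the members, described next, were 8.35 and 7.60 for MYH1E, -4.43, -3.99 and -3.38 for MYH1B, -3.09 for MYH1C, -2.22 for MYH1D, -1.54 for MYH7B and -0.25 for MYH15.

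Of the 9 genes 6 lie in 1 cluster. RefSeq (assembly GRCg7b) gives the order as MYH13, MYH1D, MYH1F, MYH1A, MYH1B, MYH1E, MYH1C and MYH1G, with 4 non-coding RNA genes in between and no other protein-coding gene. MYH7, MYH7B and MYH15 lie on other chromosomes. RefSeq also lists MYH1B among the synonyms of MYH1D, and MYH3 as a synonym of both, so the names of these copies overlap. No genome build is named for the array, so no coordinates are given. The copies of the cluster are alike, and a probe set ending in _x_at or _s_at may pick up RNA of more than 1 of them. For MYH1C and for the bright probe set of MYH1D no other kind was at hand. The 2 probe sets of MYH1E share a target sequence, as do 2 of the 3 of MYH1B, so they are not independent measurements of their gene.

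Between day 0 and day 7 the RNA signals of fast heavy chains in breast muscle moved in both directions. MYH1E went from near background to one of the brighter signals of the array, while the signals of MYH1B, MYH1C and MYH1D fell. Of the 9 member probe sets that passed the filter on dim signals, 2 rose (both MYH1E) and 5 fell (MYH1B, MYH1C and MYH1D). Over all 26285 tested probe sets 11.6% rose and 15.1% fell, by limma with a Benjamini-Hochberg adjusted p under 0.05. The other 2 tested member probe sets, of MYH7B and MYH15, were not called in muscle. Pools of the 2 ages did not overlap for 7 of the 9, and for 46.0% of all tested probe sets. All of these but MYH15 passed the filter through breast muscle alone, so these counts describe the members and are not set against the shares as a test.

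MYH1E, a fast skeletal heavy chain, had signals of 46.3, 166 and 152 in the 3 day 0 pools of breast muscle (the _at probe set of the gene). At day 7 they were 63100, 63200 and 51600. Every day 7 pool lay far above the day 0 pools, pool 3 being the lowest of its age. The mean went from 121 ± 65.4 to 59300 ± 6680 (SD, n = 3 pools), a ratio of 488 over a day 0 level close to background. On the scale of log2(signal + 28.36) the change was 8.74 ± 0.40 (SE, 95% interval 7.92 to 9.56, limma adjusted p = 8.49e-14). The second probe set, of the _x_at kind, read 127, 251 and 244 at day 0 and 63800, 64100 and 50800 at day 7, with a ratio of means of 287 and a log2 change of 8.02 ± 0.38 (limma adjusted p = 1.66e-13). The size of the ratio thus depends on the probe set. Both probe sets show the same order of the pools, with day 0 pool 1 and day 7 pool 3 lowest. The brightest probe sets of the day 7 muscle arrays read 78800 to 97800 and those above 50000 numbered 50 to 68 per array, MYH1E among them.

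**Figure D1:**
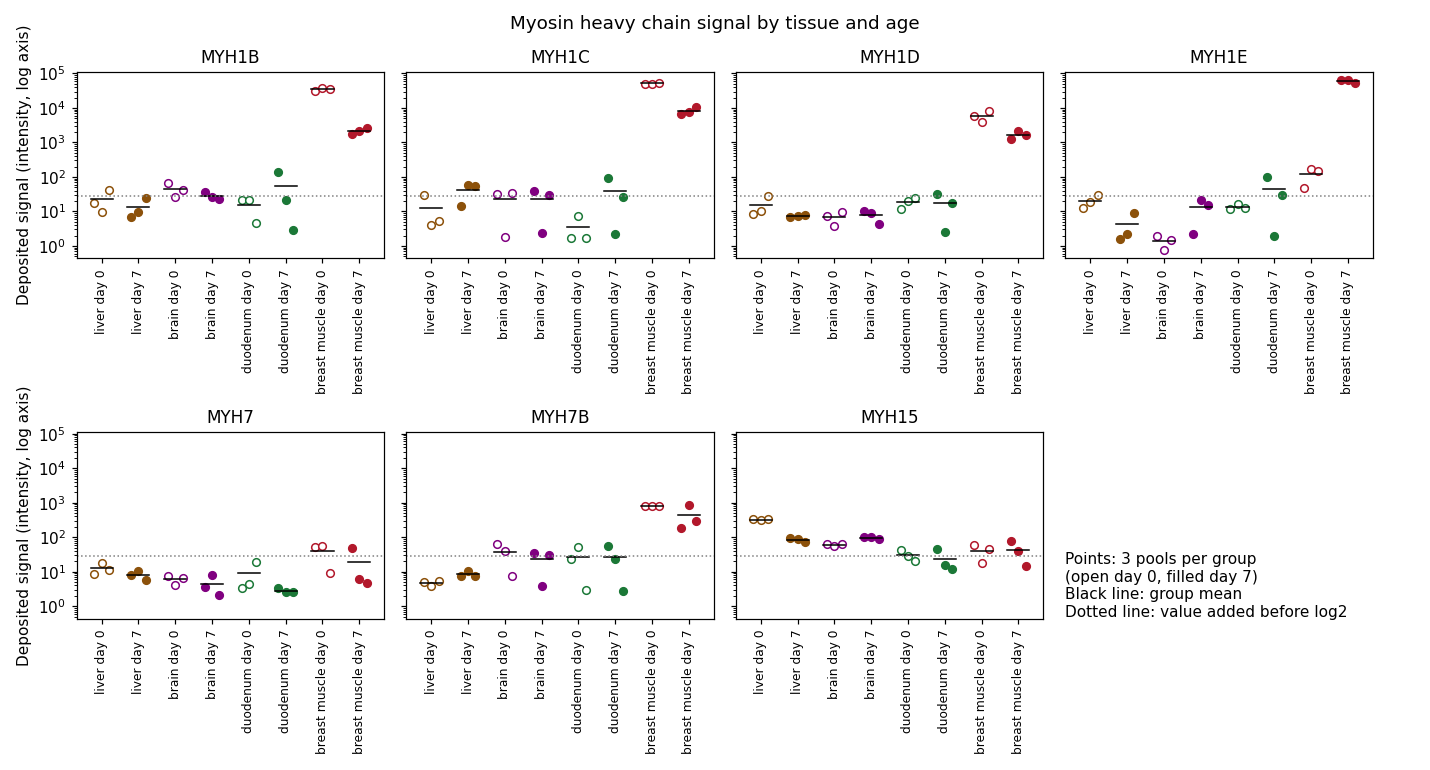
Deposited signal (intensity, log axis) of 1 probe set per gene (for MYH1D the _s_at probe set) in the 8 tissue-by-age groups; points are the 3 pools, open for day 0 and filled for day 7, black lines are group means and the dotted line is 28.36, the value added before taking logs. MYH1B, MYH1C, MYH1D, MYH1E and MYH7B are high in breast muscle alone, MYH1E chiefly at day 7, whereas MYH15 is highest in liver at day 0 and MYH7 stays below 57 in all pools.

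MYH1B, the neighbour of MYH1E in the cluster, fell. Its _at probe set read 31300, 37000 and 35900 at day 0 and 1780, 2150 and 2690 at day 7. The ages were far apart, and pool 3 was the highest of day 7. The mean went from 34700 ± 3000 to 2210 ± 457 (SD, n = 3 pools), a log2 change of -3.98 ± 0.40 (95% interval -4.81 to -3.15, limma adjusted p = 4.63e-08). The other probe sets of MYH1B moved the same way with smaller sizes. The _x_at probe set of the same target changed by -3.54 ± 0.30, and the _x_at probe set of another target by -2.93 ± 0.31 (limma adjusted p = 2.19e-09 and 1.08e-07). The last of these read 2290, 2690 and 4670 at day 7, again highest in pool 3.

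MYH1C, on the other side of MYH1E, fell as well. Its 1 probe set, of the _x_at kind, read 49400, 50100 and 54100 at day 0 and 6690, 7820 and 10500 at day 7. No pool of one age came near those of the other, and pool 3 was again the highest of day 7. The mean went from 51200 ± 2520 to 8350 ± 1970, a log2 change of -2.64 ± 0.41 (95% interval -3.48 to -1.80, limma adjusted p = 2.26e-05). The day 0 signals of MYH1C were also near the top of their arrays, whose brightest probe sets read 60800 to 65700, and at day 7 a mean of 8350 left MYH1C well above its signal in the other tissues.

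MYH1D, at the far end of the cluster, was measured by 2 probe sets that disagree. The _s_at probe set read 6000, 3880 and 8080 at day 0 and 1280, 2190 and 1620 at day 7. The day 0 pools were spread more widely than those of MYH1B or MYH1C (CV 35% against 4.91% to 10.8%), but the ages did not overlap. The log2 change was -1.77 ± 0.31 (95% interval -2.41 to -1.14, limma adjusted p = 0.000101). The _at probe set, which has no mark of cross-matching in its name, read at most 41.8 on any of the 24 arrays and did not pass the filter. It read 23.7, 7.88 and 31.8 in the day 0 muscle pools and 26.2, 11 and 4.11 in those of day 7, which overlap. The fall of MYH1D thus rests on a probe set of the _s_at kind alone.

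The 3 probe sets annotated to several copies moved in 3 ways in breast muscle. The one annotated to MYH1C, MYH1A and MYH1B fell from 50600, 54200 and 55100 to 11100, 10400 and 13800 (log2 change -2.19 ± 0.23, limma adjusted p = 8.31e-08). The one annotated to MYH1F and MYH1B rose instead. It went from 31200, 35900 and 42500 to 70900, 85100 and 69900, a log2 change of 1.05 ± 0.25 (limma adjusted p = 0.00297). This is opposite to every probe set that names MYH1B alone. With the muscle arrays fitted alone and scaled to their hybridisation controls the rise was 0.60 (adjusted p = 0.00143). That fit also took its spread from the muscle arrays only. With quantile normalization the rise was 0.73 and no longer called (adjusted p = 0.0791). The call was also lost with the 10th percentile of signals added in place of the 25th (adjusted p = 0.0764). The one annotated to all 6 copies read 11800, 19700 and 18200 at day 0 and 11400, 16200 and 14300 at day 7, which overlap. Its log2 change was -0.23 ± 0.38 (95% interval -1.02 to 0.56, limma adjusted p = 0.715). With the muscle arrays fitted alone and scaled to the controls it was -0.68 (adjusted p = 0.00476). Both the scaling and the arrays fitted differ there from the fit of all 24 arrays.

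**Figure D2:**
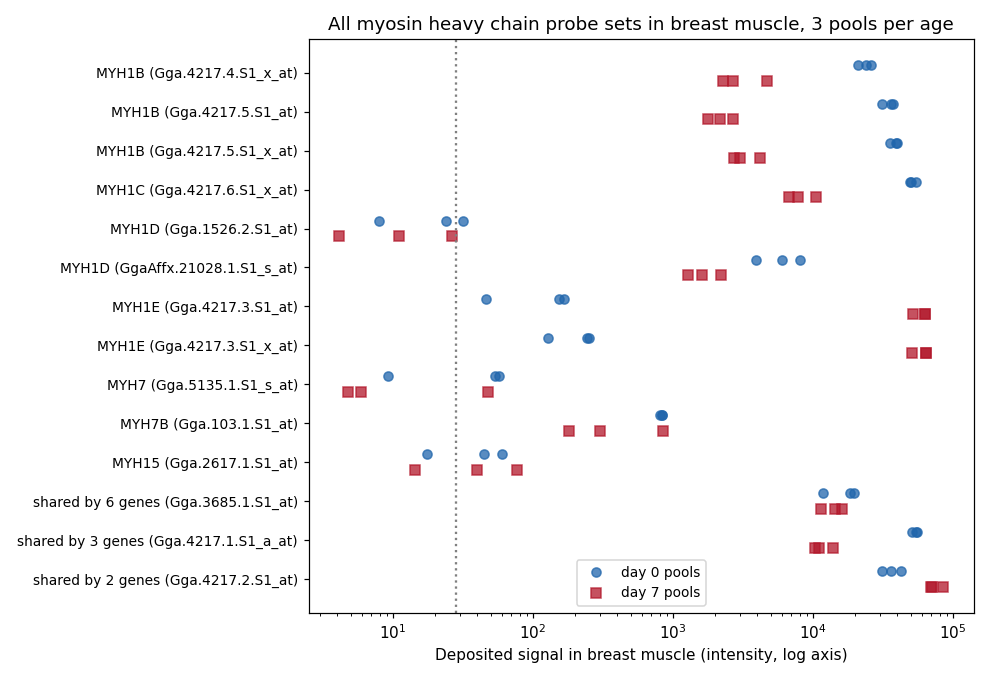
Deposited signal (intensity, log axis) of all 14 myosin heavy chain probe sets in breast muscle, 3 pools at day 0 (circles) and 3 at day 7 (squares); the dotted line is 28.36. The MYH1E probe sets move from 251 or less to 50800 or more, those of MYH1B and MYH1C move down without overlap, and the probe set shared by 6 genes and those of MYH7B and MYH15 overlap between the ages.

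MYH7B, listed in RefSeq with the synonyms SM2 and SSMHC and known as a slow muscle heavy chain, was the one slow isoform with a clear signal in breast muscle. It read 829, 800 and 830 at day 0 and 181, 844 and 300 at day 7. The day 0 pools were nearly equal, and day 7 pool 2 lay above all of them while the other day 7 pools lay below. The log2 change was -1.11 ± 0.46 (95% interval -2.07 to -0.16) and was not called (limma adjusted p = 0.0771). The call depends on the processing. Without day 7 pool 2 the change was -1.69 and was called (adjusted p = 0.00855). With all muscle arrays kept it was also called under 6 alternatives. Among them were the muscle arrays fitted alone (-1.11, adjusted p = 0.0449) and the same fit with scaling to the hybridisation controls (-1.54, adjusted p = 0.00419). In pool 2 of day 7, 9 of 18 tested slow and cardiac sarcomere genes and 13 of 13 tested fast sarcomere genes also had their highest signal of the 3 day 7 pools. The share over all tested probe sets was not computed. The median signal of that array was 119, against 102 and 103 for pools 1 and 3. The 13 fast genes differed between these pools by smaller factors than MYH7B. The part of such shared pool differences in the MYH7B value was not tested.

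MYH7, with the synonym AMHC1 in RefSeq, the atrial heavy chain of chicken heart, had signals no higher than 56.7 on any array. In breast muscle it read 53.1, 56.7 and 9.15 at day 0 and 47.7, 5.94 and 4.80 at day 7, and the ages overlap. The 18 arrays of the other tissues read 2.10 to 19.6. Its probe set did not pass the filter and was not tested. No detection calls were used here, so a signal this low does not show whether the RNA was present.

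MYH15, with the RefSeq synonym VMHC1, the ventricular heavy chain of chicken heart, had its highest signals outside muscle, in liver at day 0, at 326, 316 and 327, and it fell to 92.5, 88.7 and 73.0 in liver at day 7. The liver ages were well apart and the pools of each age close together. The mean went from 323 ± 6.15 to 84.7 ± 10.3, a log2 change of -1.64 ± 0.33 (95% interval -2.32 to -0.96, limma adjusted p = 0.00121). In liver, 11.2% of the tested probe sets were called for age. MYH15 had passed the filter through liver at day 0 alone, its highest other group mean being 95.8 in brain at day 7. The fall thus starts from the group that let MYH15 be tested, and its p-value is a description. With the stricter filter on dim signals, at 476.2, MYH15 was not among the tested probe sets. Its liver mean of 323 at day 0 lay between that filter and the median of all signals, 104.6. In all other groups MYH15 had a mean below that median. In breast muscle it read 60.0, 17.4 and 44.3 at day 0 and 76.5, 39.5 and 14.3 at day 7, with a log2 change of 0.02 ± 0.33 (95% interval -0.66 to 0.69, adjusted p = 0.980).

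**Figure D3:**
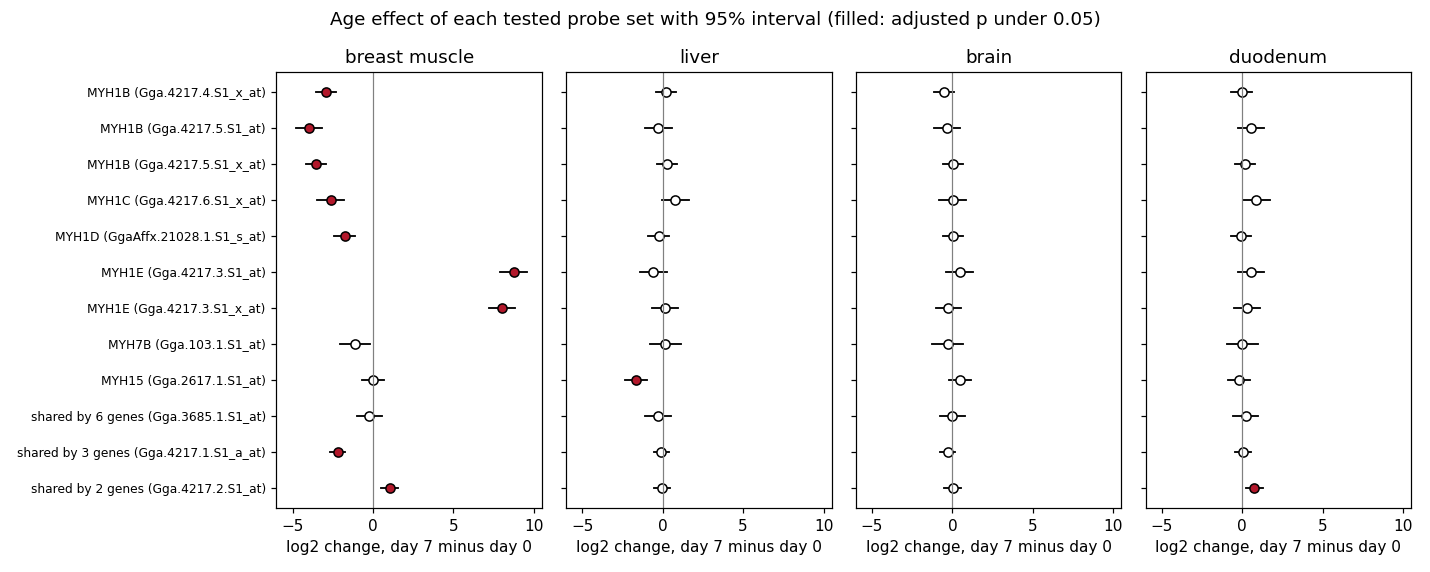
Log2 change from day 0 to day 7 (x axis) of the 12 tested probe sets in each tissue, on the log2(signal + 28.36) scale; points are limma estimates, lines 95% intervals and filled points have an adjusted p under 0.05. In breast muscle MYH1E lies at 8.74 and 8.02 and the probe sets of MYH1B, MYH1C and MYH1D between -3.98 and -1.77, while outside muscle MYH15 in liver and the probe set shared by MYH1F and MYH1B in duodenum are the filled points.

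Across the tissues the tested probe sets of MYH1B, MYH1C, MYH1D, MYH1E and MYH7B had their highest mean signals in breast muscle at each age. The _at probe set of MYH1D, which was not tested, read at most 41.8 and was not highest in muscle. At day 0, 8 of the 9 tested member probe sets were higher in breast muscle than in each of the other 3 tissues, and at day 7 it was the same 8. Of all tested probe sets 9.33% and 10.8% were. These 8 had passed the filter through their muscle groups alone, so that a difference between tissues was built into their choice and the counts are a description. The smallest log2 difference from another tissue at day 0 was 8.92 for MYH1B (_at probe set), 10.04 for MYH1C, 6.94 for MYH1D and 3.82 for MYH7B, with limma adjusted p of 1.34e-07 or less. For MYH1E at day 0 it was 1.51 (_at probe set, adjusted p = 0.00278) and 2.43 (_x_at probe set, adjusted p = 9.98e-06). Both probe sets thus read somewhat above the other tissues at hatch. Alike copies were bright in muscle at that age, and their part in these readings was not tested. At day 7 the difference for the 2 MYH1E probe sets was 9.91 and 10.15. For MYH1B and MYH1C it had come down to 5.12 and 6.92 at day 7, and for MYH1D and MYH7B to 5.25 and 2.93.

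In the order of the 8 groups, breast muscle at the 2 ages held the top ranks for MYH1B, MYH1C, MYH1D (_s_at probe set), MYH1E and MYH7B. The 2 muscle ages did not overlap for these fast isoforms and did so for MYH7B. The lower muscle age was clear of the next group, except for the _at probe set of MYH1E, whose day 0 muscle pools overlapped duodenum at day 7. For MYH1B (_at probe set) the 18 arrays of these tissues had a median signal of 22.2 and a highest of 136, and each neighbouring pair of groups overlapped. For MYH1E (_at probe set) the median was 12.3 and the highest 102. For MYH1C the values were 20.3 and 91.0, and for MYH1D 9.40 and 32.2. Most of these signals lie below 28.36 and their order carries no information. For these 4 probe sets the highest were all on duodenum day 7 pool 1, 1 of 2 duodenum arrays with high hybridisation control signal.

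For MYH15 the order was another one. Liver at day 0 stood above the rest without overlap, followed by brain at day 7 (99.0, 102 and 86.4) and liver at day 7, which overlap each other. Brain at day 0 (64.4, 55.4 and 64.2) came next, clear of liver at day 7. The muscle and duodenum groups followed, each overlapping its neighbour. At day 0 the muscle level was below that of liver by 2.40 ± 0.33 on the log2 scale (limma adjusted p = 1.03e-06). Its difference from brain at day 0 was -0.43 ± 0.33 (95% interval -1.11 to 0.25, adjusted p = 0.292).

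The age changes of most member probe sets differed between tissues. An F test of the age effects over the 4 tissues passed for 8 of the 9 tested member probe sets, and for 29.5% of all. All of these but MYH15 had passed the filter through breast muscle alone, and MYH15 through liver at day 0 alone. A difference between tissues was thus favoured by their choice, and the count and its p-values are a description. The MYH1E change in breast muscle exceeded that in liver, brain and duodenum by 9.32 ± 0.56, 8.29 ± 0.56 and 8.19 ± 0.56 on the log2 scale (_at probe set, limma adjusted p of 3.12e-10 or less). For MYH1B (_at probe set) the change in muscle differed from that in liver, brain and duodenum by -3.70, -3.64 and -4.53. For MYH15 the muscle change lay 1.66 ± 0.46 above that in liver (adjusted p = 0.0125) and was not called different from brain or duodenum. MYH7B was the exception (F test adjusted p = 0.387). In brain 0 of the 9 were called for age (0 at an unadjusted p under 0.05, and 0.224% of all tested probe sets called). In duodenum also 0 of the 9 were called (22.6% of all tested). At an unadjusted p under 0.05 there was 1, MYH1C at 0.88 ± 0.41 from signals of 91.0 or less. No member had passed the filter through brain or duodenum. Outside muscle the members other than MYH15 mostly read below the value added before taking logs, which understates their changes. The 0 counts thus do not show that the members keep their level in brain and duodenum. They are not set against the shares as a test. The probe set shared by MYH1F and MYH1B was called in duodenum (log2 change 0.75 ± 0.25, adjusted p = 0.0356), from 46.6, 4.17 and 21.1 to 36.2, 56.3 and 76.1, values that overlap and lie close to background.

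Among the day 7 muscle pools, pool 3 had the lowest signal of both MYH1E probe sets and the highest of the 3 MYH1B probe sets, of MYH1C and of the probe set shared by MYH1C, MYH1A and MYH1B. MYH1D (_s_at probe set) was highest in pool 2 instead. Of 13 tested fast sarcomere genes, most of them bright, 11 were lowest in pool 3 too, and of 18 slow and cardiac ones 5 were. The share over all tested probe sets was not computed. The array of pool 3 also had the lowest hybridisation control mean of day 7 (13690, against 14140 and 14530) and the lowest top signal (78800). The part of this in the MYH1E value was not tested. Another view came from 3591 other probe sets that were called for age in muscle and changed at least 2-fold. Pool 3 had a median position of 98.6% of the way from the day 0 to the day 7 mean. Pools 1 and 2 were at 100% and 101%. The choice and the means include these same pools, so positions near 100% were built in and are a description. With 3 pools of an age no test of pool 3 was made.

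For MYH1B, MYH1C, MYH1E, MYH7B and MYH15 the most alike genes over the 24 arrays were taken by Pearson's r of log2 signals among 11538 other genes. MYH1D and MYH7 were left out, as the probe set taken for each (the _at one for MYH1D) did not pass the filter. These correlations rest mostly on the contrast of muscle with the other tissues and are given as a description. For MYH1B they were MYBPC1 (r = 0.9786), the slow form of myosin binding protein C, SCARA5 (0.9729) and CLEC19A (0.9712). For MYH1C they were APOBEC2 (0.9858), MYOZ2 (0.9829), a Z-disc protein of slow fibres and heart, and SYNPO2L (0.9828). For MYH1E they were DUSP29 (0.9748), PRKAG3 (0.9647), a regulatory subunit of AMP-activated kinase in fast skeletal muscle, and METTL21EP (0.9638). Mean signals in muscle went from 363 to 11200 for DUSP29 and from 42.5 to 1770 for PRKAG3. For MYH7B they were MYOD1 (0.9553), CHRNG (0.9514), the fetal subunit of the acetylcholine receptor, and APOBEC2 (0.9487). For MYH15 they were less close, SFTPA2 (0.8599), PEX6 (0.8511) and FN3K (0.8508), each of them brighter in liver than in muscle.

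The partners of the heavy chains changed in the same muscle samples as well. The gene lists used from here on were chosen with earlier results of these data known, so their counts are a description. Here 1 probe set per gene was used, and 15.0% of the 11544 genes were called higher and 18.0% lower, the median over all of them being -0.02 on the log2 scale. Of 13 tested fast sarcomere genes 4 rose and 0 fell (median 0.53), where the bright probe sets of muscle had a median of 0.42. The other 9 were not called. The spread in the test comes from arrays of all 4 tissues, so this does not show that they kept their level. TMOD4, which caps thin filaments, rose by 2.53 ± 0.39, the Z-disc protein MYOZ1 by 1.72 ± 0.47 and the fast regulatory light chain MYLPF by 0.93 ± 0.19. Of 18 slow and cardiac sarcomere genes 11 fell and 5 rose (median -1.18). CSRP3, a Z-disc protein of heart and slow muscle, changed by -6.66 ± 0.33, MYBPC1 by -3.72 ± 0.45 and the slow light chain MYL3 by -3.55 ± 0.34. Against that direction, the cardiac binding protein MYBPC3 rose by 2.80 ± 0.33, the slow troponin C gene TNNC1 by 2.65 ± 0.30 and ANKRD1 by 1.72 ± 0.42.

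Thick filament partners moved both ways as well, 3 of 11 up and 3 down (median 0.59). MYLK4, a kinase of the myosin light chain kinase family, rose by 3.51 ± 0.42 from a mean signal of 47.3 ± 40.6 to 738 ± 88.2, and IGFN1 rose by 3.39 ± 0.42. The M-band protein MYOM3 fell from 2090 ± 388 to 52 ± 19.8, a log2 change of -4.74 ± 0.35, and MYLK3 changed by -1.57 ± 0.30. Of 11 genes of myosin folding and turnover 2 rose, HSP90AB1 by 1.07 ± 0.22 and UNC45B, the chaperone that folds the myosin head, by 0.94 ± 0.24. FBXO32, a ubiquitin ligase of muscle wasting, fell by 1.77 ± 0.28, with day 7 signals of 1600, 1340 and 4630. Pool 3 was thus the highest of day 7 for FBXO32 too. Over all genes 15.0% were called higher and 18.0% lower, and the folding and turnover counts lie near these shares.

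The tested heavy chains of smooth muscle and of non-muscle cells were lower at day 7 in breast muscle. Of this list 3 genes were tested and 3 fell, where 18.0% of all genes fell. MYH10 changed by -0.94 ± 0.15, MYH11 of smooth muscle by -0.80 ± 0.16 and MYH9 by -0.40 ± 0.14. MYH13, at the edge of the fast cluster, read a mean of 47.7 ± 30.9 at day 0 and 31 ± 21.3 at day 7 and did not pass the filter. MYH14, also of this list, and MYH1G had no probe set that names them alone and were not analysed here.

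Of 17 tested fibre type regulators 2 rose and 2 fell (median -0.07). Over all genes 15.0% rose and 18.0% fell, so these counts lie below the shares. EYA4 rose by 1.16 ± 0.32 and PRDM1 by 1.10 ± 0.32, both from low signals. Their means went from 69.6 ± 9.48 to 193 ± 38 and from 35.7 ± 8.57 to 110 ± 24.8. PPARGC1A, a coactivator of oxidative fibres, fell by 1.22 ± 0.17 and PROX1 by 0.52 ± 0.14. Of 10 tested thyroid hormone genes, listed because thyroid hormone is known to govern fast heavy chain isoforms in mammals, 1 rose and 1 fell. The other 8 were not called, and these counts also lie below the shares over all genes. DIO2, which activates the hormone, rose from 162 ± 51.7 to 662 ± 109 (log2 change 1.88 ± 0.27, limma adjusted p = 7.25e-06). DIO3, which inactivates it, went from 1040 ± 55.8 to 168 ± 34.3 (log2 change -2.46 ± 0.62, limma adjusted p = 0.00384).

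**Figure D4:**
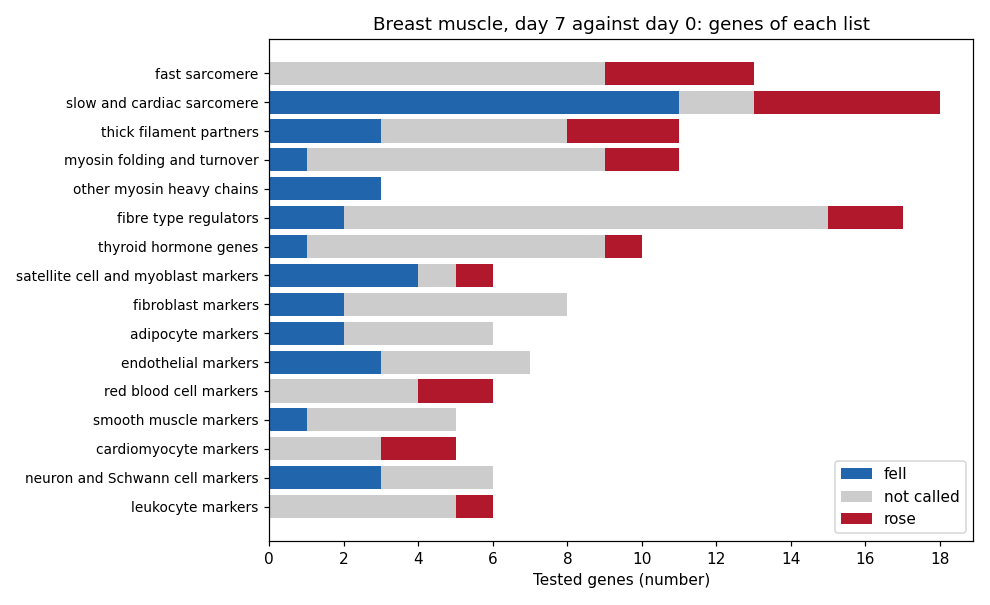
Number of tested genes (x axis) in each list that fell (blue), rose (red) or were not called (grey) between day 0 and day 7 in breast muscle, at an adjusted p under 0.05. Slow and cardiac sarcomere genes split into 11 that fell and 5 that rose, and 0 of 13 fast sarcomere genes fell.

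Some markers of other cells in the muscle samples were also called for age, and their part in the heavy chain changes was not tested. The shares over all genes, 15.0% higher and 18.0% lower, apply here too, and the counts for smooth muscle, leukocyte and fibroblast markers lie near them. Satellite cell and myoblast markers had 4 of 6 tested genes lower and 1 higher (MYOG by 1.04 ± 0.32). Their summed signal was 22800 to 24400 at day 0 and 13000 to 14300 at day 7. Most of that sum was MYOD1, with means of 16500 ± 552 and 10500 ± 640, which was not called (limma adjusted p = 0.381). The spread in this test also comes from the other tissues, where MYOD1 was dim (13.6 and 20.8 in liver at day 0 and day 7). The missing call thus does not show that MYOD1 kept its level. Endothelial markers fell in 3 of 7 cases (summed signal 15900 to 17800, then 11400 to 12200), adipocyte markers in 2 of 6 (12300 to 14500, then 6480 to 7540), neuron and Schwann cell markers in 3 of 6 (10600 to 12100, then 6160 to 7030) and smooth muscle markers in 1 of 5 (7710 to 9620, then 9030 to 11200). Fibroblast markers fell in 2 of 8 cases, with sums of 214000 to 225000 and 201000 to 226000 that overlap. Red blood cell markers rose in 2 of 6 cases (41400 to 47400, then 53600 to 71100). Leukocyte markers rose in 1 of 6 (4340 to 5230, then 6240 to 6740). Several other sums were also mostly 1 gene, PMP22 for neuron and Schwann cells, ADIPOQ for adipocytes and HBA1 for red blood cells. The smooth muscle sum went up through DES, with means of 3060 ± 460 and 6410 ± 846, which was not called (limma adjusted p = 0.081). For DES too the missing call does not show an unchanged level.

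Markers of heart muscle bear on MYH15, MYH7 and the cardiac partners. Of 5 tested, 2 rose, MYBPC3 and GATA4, the latter at low signals of 24.6 ± 26.4 and 76.2 ± 31.7. The other 3 tested, NPPA, NKX2-5 and HAND2, were not called. Their means were 41 ± 14, 4.28 ± 0.557 and 79.6 ± 53.8 at day 0. At day 7 they were 46.3 ± 21.9, 30.8 ± 43 and 96 ± 24.1, with NKX2-5 pools of 9.07, 80.3 and 2.95. All of these means lie below 104.6, the median of all signals. TBX5 did not pass the filter. The summed signal of 1070 to 2170 at day 0 and 8060 to 11100 at day 7 was nearly all MYBPC3, which is also a member of 2 other lists.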

How the data were processed

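The deposited intensity values were made by the authors with MAS5, per the submitters' processing notes, and are on a linear scale, already scaled to a common level. Which release and settings of MAS5 were used is not given in the sources used here. Before testing, 96 control probe sets were removed, 28.36 (the 25th percentile of all signals) was added to every signal and log2 was taken, with no further normalization. This understates changes of dim probe sets. Probe sets with at least 1 of 8 group means at or above 104.6 (the median signal) were tested, which left 26285. In limma 3.58.1 (R 4.3.3) the 24 arrays entered 1 model with a mean for each of the 8 groups, with variances following the signal level (16 residual degrees of freedom) and Benjamini-Hochberg adjustment over all tested probe sets. Each ± after a log2 change is a standard error and each ± after a signal an SD over 3 pools. P-values measure the spread between pools only, and the number of arrays limits the precision. This spread is estimated for each probe set over the pools of all 8 groups. A change in breast muscle can thus miss the threshold through spread in the other tissues.

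Symbols came from the array's annotation table (27178 probe sets with 1 symbol, 177 with several, 11180 with none) and were updated by gene number through RefSeq (26863 matched). All probe sets of the members were reported. Up to 3 called genes per list and direction and the 3 genes most like each compared member were named. The members and lists were chosen with earlier results of these data known. The fit was tested on simulated data. Alternatives changed the value added, the filter, the normalization, the variance model, the arrays used and a replicate block.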

Additional observations from a re-analysis of the deposited data

Results flagged for a closer look

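For 8 probe sets of the family the change from day 0 to day 7 differed between the 4 tissues, by an F test in limma with adjustment over all tested probe sets. For MYH1E the adjusted p was 2.94e-11 (_at probe set) and 5.33e-11 (_x_at probe set), with log2 changes of 8.74 and 8.02 in breast muscle and between -0.58 and 0.55 elsewhere. For MYH1B it was 4.8e-06 (_at probe set), 1.99e-07 (_x_at of the same target) and 1.58e-05 (_x_at of another target), with falls in muscle. For MYH1C it was 9.21e-05, with -2.64 in muscle against 0.77 in liver, and for MYH1D (_s_at probe set) 0.00624. For MYH15 it was 0.00559, with the fall in liver of -1.64 against 0.02 in muscle. All of these but MYH15 had passed the filter through breast muscle alone, and MYH15 through liver at day 0 alone. These F tests thus describe the members and are not independent of their choice. No group had enough pools for a test of single outlying arrays.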

How the results depend on the processing

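Of 26 changes and tissue differences of member probe sets, recomputed under up to 38 alternatives each, 946 of 953 values kept their direction and their side of the threshold and 0 reversed. The other 7 were of the MYH7B age effect in muscle, which was called at -0.95 to -1.69 (adjusted p of 0.0487 or less). Member counts in muscle were 5 to 6 lower and 2 higher throughout. The MYH1E change ran from 8.08 to 9.02 (_at probe set). The F test call of MYH1D was lost with the 10th percentile added (0.162). Member calls for age became 0 in liver with the 75th percentile filter. Leaving out 1 array at a time kept member calls at 1 in liver and moved those in duodenum from 0 to 1, without duodenum day 7 pool 2. The cause was not tested.

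In an alternative chosen after seeing the data, the muscle arrays were fitted alone and scaled to their hybridisation controls. The median change was -0.39, against -0.02 with the muscle arrays fitted alone without this scaling. The number of probe sets called for age in muscle was 11192, against 7031 in the fit of all 24 arrays. Both the scaling and the arrays fitted differ between these 2 counts, and the part of each was not tested. In the scaled fit MYH1E still rose (8.35) and MYH1B fell (-4.43), each by its _at probe set. The same count in liver, 2948, was 1870 with median centring and 4858 with array weights. That in duodenum, 5928, was 2959 with duodenum fitted alone. That in brain, 59, was 17 with median centring, 97 with quantile normalization, 13 with brain alone, 36 without the variance trend, 354 with array weights, 138 without 2 duodenum arrays of high control signal and 18 without 2 brain arrays of low 5′ signal, and 26 to 80 with 1 array left out. Those counts for leaving out 1 array were 2024 to 3478 in liver, 4725 to 6209 in duodenum and 5528 to 7808 in muscle. Deviations of same-numbered pools correlated at -0.442 to 0.368 over 28 pairs of groups, without a steady pairing. Differences in array quality also enter these deviations, so whether the pools share birds was not tested. With the replicate block the muscle count was 7006 and the MYH1B change -2.93 (_x_at of another target), and no member call changed. Dim signals, as of MYH7 and one MYH1D probe set, limit what can be read from them.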

Other observations

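Several dim signals sat on 1 array. Duodenum day 7 pool 1 read 136 for MYH1B (_at probe set), 91.0 for MYH1C and 102 for MYH1E (_at probe set), against 2.95 to 21.2, 2.28 to 26.6 and 1.94 to 30.4 on the other duodenum day 7 arrays. The mean hybridisation control signal of this array was 41950, against 5736 and 8885 on those arrays.

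Signals of neighbouring copies of the cluster moved in opposite ways. In the RefSeq order MYH1E, which rose, lies between MYH1B and MYH1C, which fell. The probe set annotated to MYH1F and MYH1B rose while all 3 annotated to MYH1B alone fell. No probe sequences were used here, so the share of each copy in the shared and the _x_at probe sets was not tested.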
